A study of Mus musculus with 9 samples.

Results

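The genes described here are 49 neighbours of Cebpb on mouse chromosome 2. Cebpb encodes the transcription factor C/EBPβ and was the gene deleted in the knockouts. The set lies around Mmp9, between Mmp9 and Cebpb, and just beyond Cebpb, and was chosen by symbol from the gene order, with Mmp9, Cebpb, Cd40 and Ube2c left out. All 49 were found on chromosome 2 in the RefSeq gene table, in the listed order. A probe (here the summary of a set of oligonucleotides against a single transcript region) was used where its annotation held exactly 1 gene symbol, and this gave values for 46 of the 49, among 22180 genes measured in all. Acot8, Zfp335 and Spata2 were annotated only on probes shared with a neighbouring gene and have no value here. Together with the 4 genes left out and 9 further genes of the same stretch, the interval held 59 measured genes.

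Total RNA of dendritic cells (DCs), the cells that take up antigen and present it to T cells, was hybridised to 9 arrays, with 1 array per sample. The 3 knockout samples (C/EBPβ-/-) were CD11c+MHCII+ cells sorted from spleens of naive CD11c-Cre-eGFPxC/EBPβflox/flox mice, and the 6 control samples (C/EBPβ+/+) were the same kind of cells from naive CD11c-Cre-eGFP mice. All 9 carry the strain label C57BL/6, and the protocol text also lists plain C57BL/6 mice as a source without saying which samples they gave. No age is stated. The Cre recombinase is driven by the CD11c (Itgax) promoter, so the deletion is made in cells that have switched on CD11c, and the labels do not give the share of cells that carry it. No label states that each sample is a different animal. The tests therefore rest on the spread between the 9 samples, and that spread may be technical.

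A gene-targeted allele is inherited as a piece of chromosome. Genes close to the engineered site stay joined to it over many generations of crossing, so mice that carry the allele can keep neighbouring DNA of the strain in which it was made. Such DNA can alter the level of a linked gene, and it can also alter the signal of an array probe whose target differs by single bases between strains. The labels give neither the strain of the embryonic stem cells nor the number of backcrosses, and the files hold no genotypes. In these samples linked DNA and the loss of C/EBPβ therefore cannot be told apart, and the comparison below gives only the size and the place of the differences.

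Knockout DCs differed from control DCs at few of the linked genes. Of the 46 measured, 2 passed limma's test (lmFit and eBayes, adjusted p under 0.05 over all genes), the heparan sulphate sulphatase gene Sulf2, which rose, and the long noncoding RNA gene 5031425F14Rik, which fell. That is 4.35% of the linked genes, against 0.906% of all 22180 genes (0.415% higher and 0.491% lower in the knockout). The median difference of the 46, on the log2 scale and as knockout minus control, was -0.04, beside -0.01 over all genes. The median size of the difference without regard to sign was 0.08 in the linked genes and 0.08 in all genes. A further 9 of the 46 had an unadjusted p under 0.05, which makes 11 of 46 (23.9%), beside 3178 of 22180 genes (14.3%).

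The test without a filter on signal mixes well-lit and dim probes. Of the 46 linked genes, 39 had a mean signal at or above the median of all genes and 7 lay below it. When only genes at or above that median were tested, 4 of the 39 linked genes passed (10.3%), against 4.84% of 11090 genes. These 4 were Sulf2, 5031425F14Rik, Ocstamp and Dpm1. The knockouts stood wholly above or wholly below the 6 controls in 7 of the 46 linked genes (15.2%), 4 higher and 3 lower, beside 7.39% of all genes. The count was 12 without knockout replicate 3. Fewer samples make separation easier, and the share of all genes in that setting was not computed, so 12 has no matching background. Among genes at or above the median signal the corresponding shares were 17.9% of the linked genes and 12.4% of all genes.

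**Figure D1:**
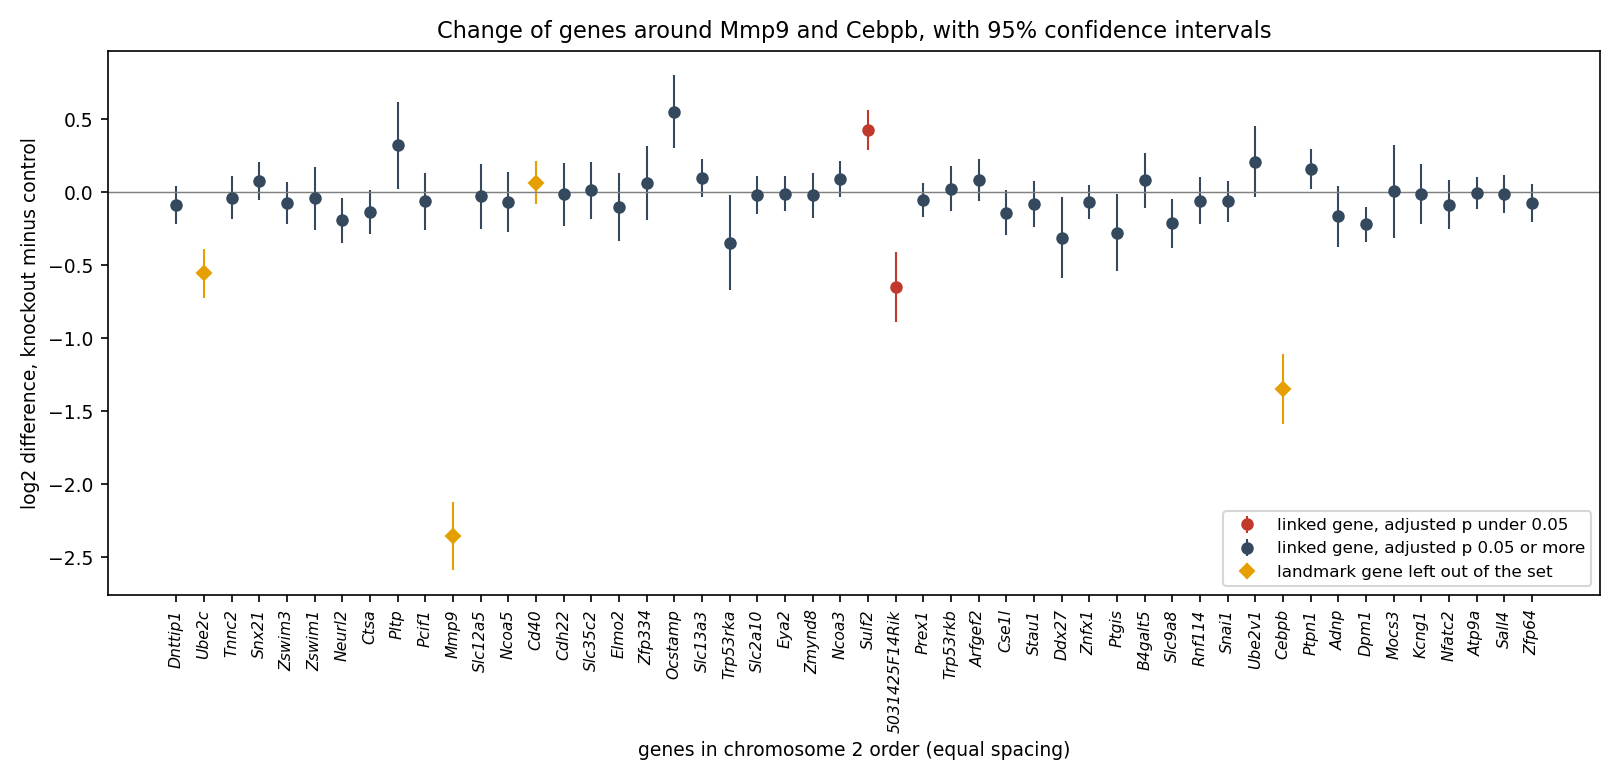
Log2 difference, knockout minus control (vertical axis), of 46 linked genes and the 4 left-out genes Ube2c, Mmp9, Cd40 and Cebpb (diamonds) in chromosome order at equal spacing. Points are limma estimates from 3 knockout and 6 control samples, bars are 95% confidence intervals, and red marks Sulf2 (0.43) and 5031425F14Rik (-0.65), while Mmp9 (-2.35) and Cebpb (-1.35) stand below every linked gene.

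The intervals show how precisely each difference was estimated from the spread between samples. Each is a separate 95% interval, not adjusted for the number of genes. Half-widths of the 95% confidence intervals ran from 0.11 to 0.33 over the 46 linked genes, with a median of 0.16. In 39 of them the whole interval lay between -0.5 and 0.5, and in all 46 it lay between -1 and 1. No linked gene came near the loss of Cebpb or Mmp9.

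Cebpb and Mmp9 mark the ends of the central stretch. Cebpb had log2 intensities of 5.37, 5.60 and 5.42 in the knockouts, against 6.64, 6.77 and 7.15 (lowest, median and highest, the order used for controls throughout) in the controls. Which part of the gene is removed is not stated in the labels. Mmp9, the gelatinase B gene, had 6.39, 6.49 and 6.18 in the knockouts, against 8.56, 8.65 and 9.01 in the controls. Ube2c, a ubiquitin-conjugating enzyme of mitosis and the next measured gene after Dnttip1, was lower in the knockouts by a log2 change of -0.56 (SE 0.07, limma's adjusted p = 0.011). Cd40, the costimulatory receptor gene between Ncoa5 and Cdh22, differed by 0.07 (SE 0.07, adjusted p = 0.72). The linked genes around and between these landmarks are described below by stretch.

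The stretch before Mmp9 held 9 measured linked genes, of which 0 passed limma's test and 2, Pltp and Neurl2, had an unadjusted p under 0.05. It begins with Dnttip1, a subunit of a histone deacetylase complex, and runs through Tnnc2 (fast-muscle troponin C), Snx21 (a sorting nexin), the zinc-finger genes Zswim3 and Zswim1, Neurl2, Ctsa, Pltp and Pcif1. Differences ranged from -0.19 (Neurl2, a muscle ubiquitin-ligase adaptor) to 0.32 (Pltp), and 7 of the 9 were below 0. Dnttip1 differed by -0.09, Tnnc2 by -0.04, Snx21 by 0.08, Zswim3 by -0.07 and Zswim1 by -0.04. In 0 of the 9 did the groups separate, beside 7.39% of all genes. Over all genes 0.906% passed the test.

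Ctsa encodes cathepsin A, the lysosomal carboxypeptidase that also shields β-galactosidase and neuraminidase. It had 11.24, 11.29 and 11.50 in the knockouts, against 11.42, 11.47 and 11.55 in the controls. Knockout replicates 1 and 2 lay below every control and replicate 3 within their range, and the difference was -0.14 (SE 0.07, adjusted p = 0.41).

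Pltp encodes the phospholipid transfer protein of plasma, which macrophages also make. It had 10.05, 10.02 and 10.55 in the knockouts, against 9.71, 9.84 and 10.22 in the controls. Knockout replicate 3 was the highest sample and control replicate 2 the next, so the groups overlap. The difference was 0.32 (SE 0.14, adjusted p = 0.31), and 0.15 without knockout replicate 3. Over 12 red pulp macrophage markers, of which 0 passed the test, the mean deviation from the controls was 0.29, 0.74 and 0.70 for the 3 knockouts in order of replicate, and it ranged from -0.53 to 0.50 in the controls, with control replicate 2 at the top. Over 12 B cell markers it was 0.17, -0.14 and 0.78 in the knockouts, against -0.06 to 0.15 in the controls. The part of these cells in the Pltp values was not tested. In sorted cells, more cells of another type and more RNA per cell cannot be told apart.

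None of the nearest measured neighbours of Mmp9 passed. Pcif1, which methylates the adenosine next to the mRNA cap, had 9.03, 9.07 and 9.06 in the knockouts, against 8.90, 9.10 and 9.32 in the controls. On the other side, Slc12a5, a potassium-chloride cotransporter of neurons, had 6.04, 6.06 and 5.95 in the knockouts, against 5.71, 6.11 and 6.20 in the controls. Ncoa5, a coregulator of nuclear receptors, had 8.84, 8.56 and 8.39 in the knockouts, against 8.58, 8.63 and 8.79 in the controls. All 3 genes overlap between the groups, and in Ncoa5 the knockouts spread to both sides of the controls. The differences were -0.06 for Pcif1 (95% confidence interval -0.26 to 0.13), -0.03 for Slc12a5 (-0.25 to 0.20) and -0.07 for Ncoa5 (-0.27 to 0.14), beside -2.35 for Mmp9 between them.

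The stretch between Mmp9 and Cebpb held 28 measured linked genes and both that passed. Of the 28, 1 was higher, 1 was lower and 26 did not pass, while 0.906% of all genes passed. Within 0.1 of 0 lay 18 of the 28 (64.3%), beside 58.7% of all genes. All 3 knockout values stood outside the control range in 5 (17.9%), beside 7.39% of all genes and 12.4% of those at or above the median signal. Ocstamp, Ncoa3 and Sulf2 were higher and 5031425F14Rik and Slc9a8 lower.

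Sulf2 encodes an extracellular sulphatase that trims sulphate groups from heparan sulphate and thereby changes how growth factors and chemokines bind to cell surfaces. It had 11.57, 11.59 and 11.49 in the knockouts, against 11.05, 11.09 and 11.22 in the controls. Every knockout sample lay above every control, with little spread in either group. The means were 11.55 ± 0.056 in the knockouts and 11.12 ± 0.075 in the controls (SD, n = 3 and n = 6). Sulf2 was higher by 0.43, which is 1.35-fold (SE 0.06, 95% confidence interval 0.29 to 0.57). The adjusted p was 0.016 by limma, and an exact permutation test (two-sided, 84 splits) gave p = 0.012, its lowest possible value. The linked genes 5031425F14Rik, Ocstamp and Dpm1 had the same exact p, so it does not set Sulf2 apart, and Ocstamp and Dpm1 did not pass limma's test. Without knockout replicate 2 the Sulf2 difference was 0.41 with an adjusted p of 0.082, and without any other 1 sample Sulf2 passed.

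5031425F14Rik is a long noncoding RNA gene in the RefSeq table and is separated from Sulf2 by 1 measured gene of the interval. It had 5.53, 5.44 and 5.76 in the knockouts, against 6.02, 6.25 and 6.42 in the controls. Every knockout sample lay below every control. The means were 5.58 ± 0.16 in the knockouts and 6.23 ± 0.17 in the controls (SD, n = 3 and n = 6), so the gene fell by 0.65 on the log2 scale, which is 1.57-fold (SE 0.11, adjusted p = 0.028 by limma). The 95% confidence interval was -0.89 to -0.41. This call depended on single samples. The adjusted p was 0.057 without control replicate 1, 0.064 without control replicate 3, 0.072 without control replicate 4, 0.058 without control replicate 6, 0.053 without knockout replicate 1 and 0.14 without knockout replicate 2, with differences from -0.66 to -0.58 in these fits. The signal in knockout cells was below 5.93, the median of all genes, and the background part of it is unknown.

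The promoter windows of both genes that passed are shown because loss of a transcription factor is the tested condition. They come from RefSeq (GRCm38.p6) and run from 250 bases before to 50 bases after the annotated start, 5′ to 3′ on the gene's strand. The Sulf2 window, 1 of its 2 in the table, is chr2:166155634-166155933 on the minus strand, and that of 5031425F14Rik is chr2:166447201-166447500 on the plus strand. Neither holds TTGCNNAA, the core of the C/EBP recognition sequence, on either strand, which says only that these letters are not in these windows.
Sulf2: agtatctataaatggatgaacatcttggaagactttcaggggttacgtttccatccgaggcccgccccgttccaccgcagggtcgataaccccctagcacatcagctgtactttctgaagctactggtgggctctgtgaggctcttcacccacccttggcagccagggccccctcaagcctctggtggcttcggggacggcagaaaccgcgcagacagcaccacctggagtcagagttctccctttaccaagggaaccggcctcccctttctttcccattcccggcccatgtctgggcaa
5031425F14Rik: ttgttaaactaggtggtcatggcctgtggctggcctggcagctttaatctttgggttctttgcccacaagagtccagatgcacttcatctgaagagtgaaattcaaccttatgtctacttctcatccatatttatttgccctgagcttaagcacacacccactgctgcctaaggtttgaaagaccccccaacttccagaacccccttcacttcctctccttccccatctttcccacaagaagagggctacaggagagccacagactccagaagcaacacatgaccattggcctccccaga

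The genes on either side of this pair did not pass. Ncoa3, a histone acetyltransferase coactivator of nuclear receptors that lies just before Sulf2, had 11.03, 11.01 and 11.09 in the knockouts, against 10.86, 10.97 and 11.00 in the controls. The knockouts lay just above the highest control, and the difference of 0.09 (SE 0.06, adjusted p = 0.52) did not pass. Prex1, a Rac exchange factor that lies just after 5031425F14Rik, differed by -0.05 (SE 0.05, adjusted p = 0.73). A rise and a fall thus stood close together, between neighbours that differed by less than 0.1.

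Ocstamp encodes a membrane protein needed for the fusion of osteoclasts and macrophages into multinucleate cells. It had 10.46, 10.51 and 10.56 in the knockouts, against 9.57, 9.99 and 10.15 in the controls. The 3 knockouts lay together above all controls, and control replicate 3 stood lowest. The difference of 0.55, which is 1.47-fold (SE 0.11, 95% confidence interval 0.31 to 0.80), just missed the threshold (limma's adjusted p = 0.051). It passed without control replicate 3 (adjusted p = 0.028), with the filter on signal (0.023), with a second quantile normalization (0.042), with trend and robust fitting (0.042) and with array weights (0.025). The red pulp macrophage markers were lowest in control replicate 3 too (-0.53), while in control replicate 2, where they reached 0.50, Ocstamp had 9.93. Their part in the Ocstamp values was not tested.

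**Figure D2:**
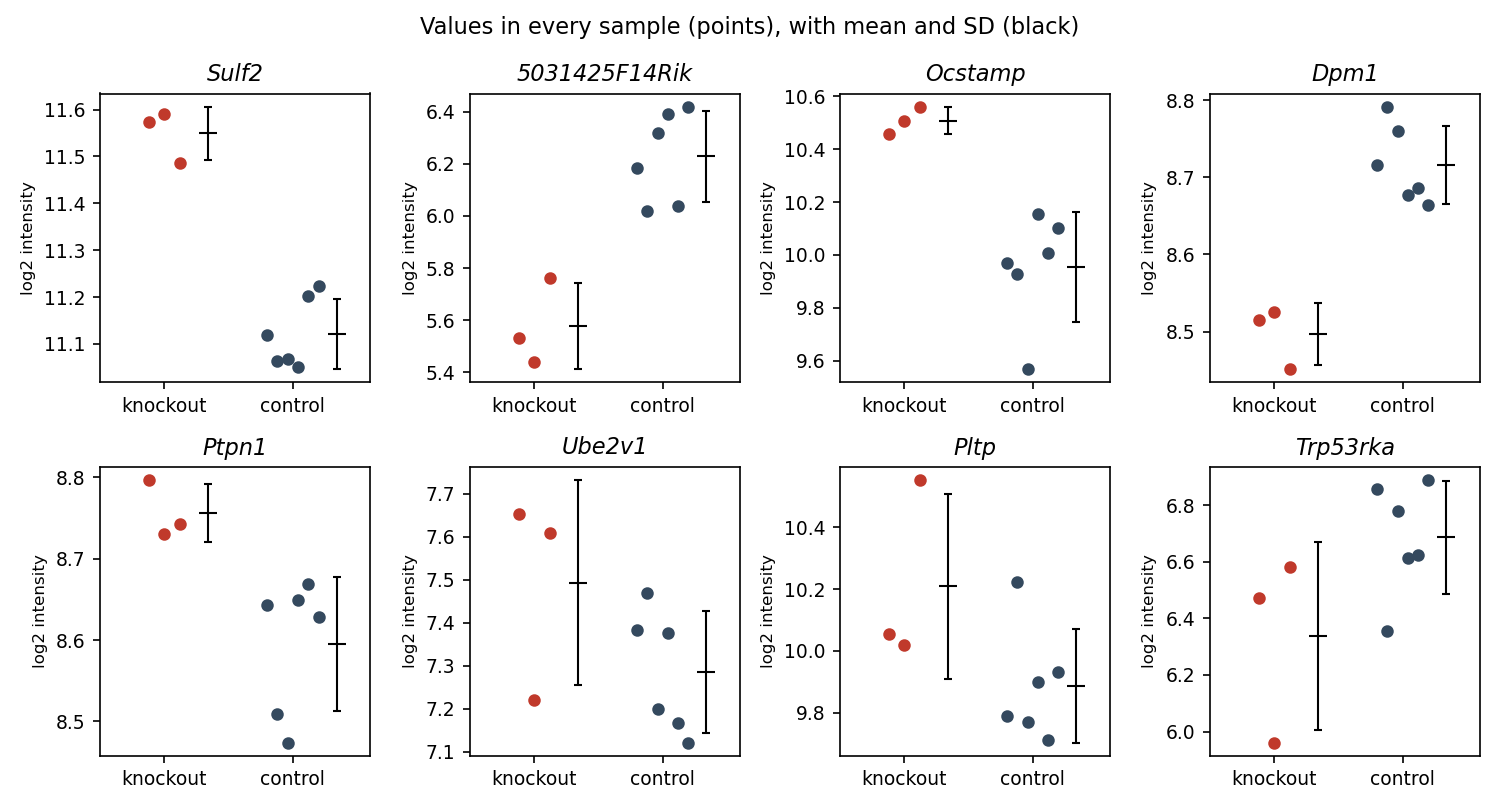
Log2 intensity (vertical axes, each panel on its own scale) of 8 linked genes in the 3 knockout samples (left, red) and the 6 control samples (right, dark), with the mean and SD of each group in black. The groups separate in Sulf2, 5031425F14Rik, Ocstamp, Dpm1 and Ptpn1, and overlap in Ube2v1, Pltp and Trp53rka, where knockout replicate 2 has 5.96.

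Trp53rka and Trp53rkb are copies of a gene for a protein kinase of the KEOPS complex, which modifies transfer RNAs. Their promoter windows are shown because they are alike, with 89.4% identity over 246 aligned columns and a longest shared run of 76 bases, given in capitals, which ends at the edge of the Trp53rkb window. The likeness of the transcripts and proteins was not computed. The windows are chr2:165493265-165493564 on the minus strand and chr2:166793517-166793816 on the plus strand (RefSeq, GRCm38.p6).
Trp53rka: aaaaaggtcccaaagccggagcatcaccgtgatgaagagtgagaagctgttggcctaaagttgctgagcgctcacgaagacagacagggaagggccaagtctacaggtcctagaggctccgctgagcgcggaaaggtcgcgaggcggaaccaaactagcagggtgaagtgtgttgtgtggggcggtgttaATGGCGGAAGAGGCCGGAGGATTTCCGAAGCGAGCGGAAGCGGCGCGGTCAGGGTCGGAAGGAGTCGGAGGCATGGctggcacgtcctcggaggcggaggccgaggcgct
Trp53rkb: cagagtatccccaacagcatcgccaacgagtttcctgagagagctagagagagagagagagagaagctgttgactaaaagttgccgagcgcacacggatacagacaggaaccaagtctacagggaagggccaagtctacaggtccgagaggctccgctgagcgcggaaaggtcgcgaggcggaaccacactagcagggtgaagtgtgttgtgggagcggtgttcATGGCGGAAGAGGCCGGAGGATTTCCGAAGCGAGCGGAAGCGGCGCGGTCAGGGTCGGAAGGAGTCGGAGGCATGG

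Trp53rka had 6.47, 5.96 and 6.58 in the knockouts, against 6.36, 6.70 and 6.89 in the controls. Trp53rkb had 5.80, 5.78 and 5.70 in the knockouts, against 5.64, 5.72 and 5.90 in the controls. Knockout replicate 2 was the lowest sample for Trp53rka, and for Trp53rkb the knockouts lay within the control range. The differences were -0.35 (SE 0.15, adjusted p = 0.32) for Trp53rka, or -0.16 without knockout replicate 2, and 0.03 (SE 0.07, adjusted p = 0.91) for Trp53rkb. Oligonucleotides can bind the transcripts of both copies where these share sequence, so the division of signal between the genes is uncertain.

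Ddx27, a helicase of ribosomal RNA processing, had 8.34, 8.28 and 7.79 in the knockouts, against 8.25, 8.48 and 8.63 in the controls. Knockout replicate 3 was far below every other sample, and the other knockouts lay within the control range. The difference was -0.31 (SE 0.13, adjusted p = 0.30), and -0.14 without knockout replicate 3. In that sample the B cell markers stood at 0.78 above the control mean, and their part in the value was not tested.

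The other genes of the middle stretch did not pass, with Ptgis and Slc9a8 at an unadjusted p under 0.05. Slc9a8, an organelle sodium-proton exchanger, had 9.44, 9.38 and 9.55 in the knockouts, against 9.56, 9.64 and 9.87 in the controls, so the groups just separate (-0.21, SE 0.08, adjusted p = 0.24). Ptgis, the prostacyclin synthase gene, differed by -0.28 (adjusted p = 0.32) and Cse1l, the export receptor of importin-α, by -0.14 (adjusted p = 0.40). Elmo2, which acts in engulfment of dead cells, differed by -0.10, and Slc13a3, a dicarboxylate transporter, by 0.10. Differences within 0.1 were found for the adhesion gene Cdh22 (-0.02), the sugar-nucleotide transporter relative Slc35c2 (0.01), the glucose transporter Slc2a10 (-0.02), the phosphatase and coactivator Eya2 (-0.01), the chromatin reader Zmynd8 (-0.02), the Arf exchange factor Arfgef2 (0.08), the RNA-binding gene Stau1 (-0.08), the antiviral helicase Znfx1 (-0.07), the galactosyltransferase B4galt5 (0.08) and the zinc-finger gene Zfp334 (0.06).

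**Figure D3:**
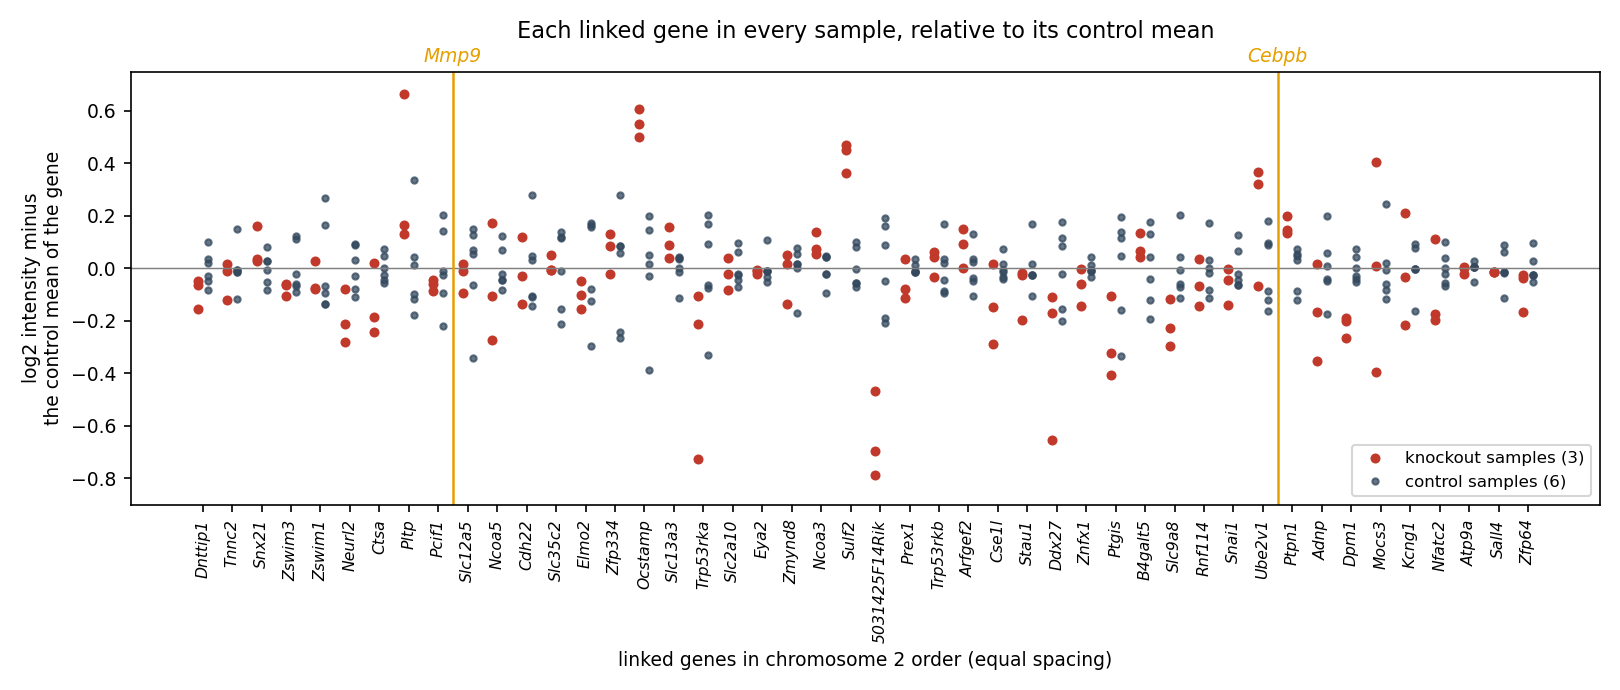
Log2 intensity of each of the 46 linked genes in every sample minus that gene's control mean (vertical axis), in chromosome order at equal spacing, with 3 knockout samples in red left of 6 control samples in dark, and vertical lines at the places of Mmp9 and Cebpb. The knockout points of Sulf2, Ocstamp and 5031425F14Rik stand apart from the controls, while those of the genes next to Mmp9 and Cebpb lie among or close to them.

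The genes nearest to Cebpb are those least likely to be separated from its engineered allele by crossing over. On the near side, Rnf114, a ubiquitin ligase, had 9.51, 9.61 and 9.43 in the knockouts, against 9.46, 9.57 and 9.75 in the controls. Snai1, the Snail repressor gene of epithelial-mesenchymal transition, had 5.93, 5.89 and 5.79 in the knockouts, against 5.87, 5.90 and 6.06 in the controls. Both overlap between the groups and differed by -0.06. Ube2v1, the inactive partner of the ubiquitin-conjugating enzyme that builds signalling chains in the NF-κB pathway, had 7.65, 7.22 and 7.61 in the knockouts, against 7.12, 7.29 and 7.47 in the controls. Knockout replicates 1 and 3 lay above every control and replicate 2 among them (0.21, SE 0.11, adjusted p = 0.44).

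Beyond Cebpb, 0 of 9 measured linked genes passed by limma, beside 0.906% of all genes. The groups separated in 2 (22.2%), Ptpn1 and Dpm1, beside 7.39% of all genes and 12.4% of those at or above the median signal. These were also the 2 with an unadjusted p under 0.05. Ptpn1 encodes a phosphatase that dampens insulin, leptin and JAK kinase signalling. It had 8.80, 8.73 and 8.74 in the knockouts, against 8.47, 8.64 and 8.67 in the controls. Every knockout lay above every control, by a small margin, and the difference was 0.16 (SE 0.06, 95% confidence interval 0.02 to 0.30, adjusted p = 0.27).

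Adnp, a homeodomain factor of chromatin repression, had 9.14, 8.95 and 9.32 in the knockouts, against 9.13, 9.29 and 9.50 in the controls. The groups overlap (-0.17, SE 0.09, adjusted p = 0.47). Dpm1, the catalytic subunit of dolichol-phosphate mannose synthase, had 8.52, 8.53 and 8.45 in the knockouts, against 8.66, 8.70 and 8.79 in the controls. Every knockout lay below every control, and the difference of -0.22 (SE 0.05, 95% confidence interval -0.34 to -0.10, adjusted p = 0.093) passed only when genes below the median signal were left out (adjusted p = 0.045).

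The remaining genes beyond Cebpb did not pass either. Mocs3, which supplies sulphur for molybdenum cofactor synthesis, differed by 0.01, and its knockouts had 6.71, 6.31 and 5.90, against 6.18, 6.27 and 6.54 in the controls. The knockouts thus stood on both sides of the controls. Kcng1, a potassium channel subunit, differed by -0.01, Nfatc2, a transcription factor of calcineurin signalling, by -0.09, Atp9a, an endosomal flippase relative, by -0.01, Sall4, a stem cell zinc-finger factor, by -0.01, and Zfp64 by -0.08. Sall4 was the only linked gene with 2 probes of its own, and its other probe differed by -0.07.

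The differences were also set against the distance from Cebpb. Among 22 linked genes within 15 measured genes of Cebpb, the median size was 0.08 and 0 passed. Among the 24 farther away it was 0.08 and 2 passed, beside 0.906% of all genes. The 2 that passed lie 16 (5031425F14Rik) and 18 (Sulf2) measured genes from Cebpb, just past that limit, so the split of 0 and 2 depends on where the limit is set. Across the 46 genes, Spearman's rho between the size of the difference and the distance in measured genes was -0.11, a description over genes that share the same 9 arrays. Per sample, 17, 16 and 20 of the 46 linked genes lay above their control mean in knockout replicates 1 to 3, and 15 to 28 did in the controls. The median deviation of the 46 from their control means was -0.021, -0.041 and -0.010 in the knockouts, against -0.022 to 0.044 in the controls. Knockout replicate 2 thus lay slightly below every control by the median, and within their range by the count.

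Pltp and Ptpn1 are shown for contrast, since their windows hold the searched motif. Of the 49 linked genes 41 had a promoter window in the RefSeq table, and 5 of these 41 (12.2%) held TTGCNNAA on either strand in at least 1 window, beside 12.2% of 27025 genes. The 5 were Pltp, Elmo2, Zmynd8, Stau1 and Ptpn1, of which 0 passed the test. The Pltp window is chr2:164857659-164857958 on the minus strand and the Ptpn1 window chr2:167932077-167932376 on the plus strand, with the match in capitals. A match is a string of letters and not a shown binding site.
Pltp: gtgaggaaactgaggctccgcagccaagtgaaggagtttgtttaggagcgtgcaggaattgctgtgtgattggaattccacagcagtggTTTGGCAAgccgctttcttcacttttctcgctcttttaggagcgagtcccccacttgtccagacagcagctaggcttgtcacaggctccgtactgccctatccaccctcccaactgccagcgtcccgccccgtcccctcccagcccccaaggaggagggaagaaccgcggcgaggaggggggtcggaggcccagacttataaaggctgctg
Ptpn1: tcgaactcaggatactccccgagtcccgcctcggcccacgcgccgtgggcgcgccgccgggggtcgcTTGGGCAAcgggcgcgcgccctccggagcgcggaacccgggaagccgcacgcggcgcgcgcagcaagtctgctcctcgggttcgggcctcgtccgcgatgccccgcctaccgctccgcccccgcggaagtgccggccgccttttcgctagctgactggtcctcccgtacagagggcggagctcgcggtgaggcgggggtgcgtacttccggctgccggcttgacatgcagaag

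The rest of chromosome 2 places these counts. Among the 50 measured genes before Dnttip1, 1 passed, Serinc3, a serine-incorporator family gene, which was higher by 0.34 (SE 0.07, adjusted p = 0.049), and among the 50 after Zfp64, 0 passed by limma while 8 had an unadjusted p under 0.05. An unadjusted p under 0.05 was found for 6 of the 50 genes before. The groups separated in 15.2% of the linked genes, against 5 (10%) of the 50 genes before and 3 (6%) of the 50 after. With any 1 sample other than knockout replicate 3 left out, 0 of these flanking genes passed. Of the 9 further genes inside the interval, 0 passed, 0 had an unadjusted p under 0.05 and in 0 did the groups separate. The flanking genes and these 9 were not matched to the linked genes for signal. Of the 46 linked genes 39 lay at or above the median signal. The groups separated in 12.4% of all genes at that level, beside 7.39% of genes at any level. On chromosome 2 as a whole 0.904% of 1880 genes passed, and over 20 chromosomes the share ranged from 0.442% to 1.52%.

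In 38 runs of consecutive genes along chromosome 2, 50 to a run with a shorter last one, the 2 runs that hold the linked genes had 2 and 3 genes that passed. Those genes were Ube2c and Mmp9 in the first of the runs and Sulf2, 5031425F14Rik and Cebpb in the next. Ube2c, Mmp9 and Cebpb are left out of the linked set, so only Sulf2 and 5031425F14Rik among these are linked genes. The other 36 runs had 0 to 2 genes that passed. The groups separated in 12% and 16% of genes in the 2 runs with linked genes, against 2% to 18% in the others, of which 3 reached 12% or more. In the first of the 2 runs, 0 of its 13 linked genes separated, and the 12% came from Ube2c, Mmp9 and genes before Dnttip1. In the next, 7 of its 33 linked genes separated, and Cebpb itself made up the rest of the 16%.

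**Figure D4:**
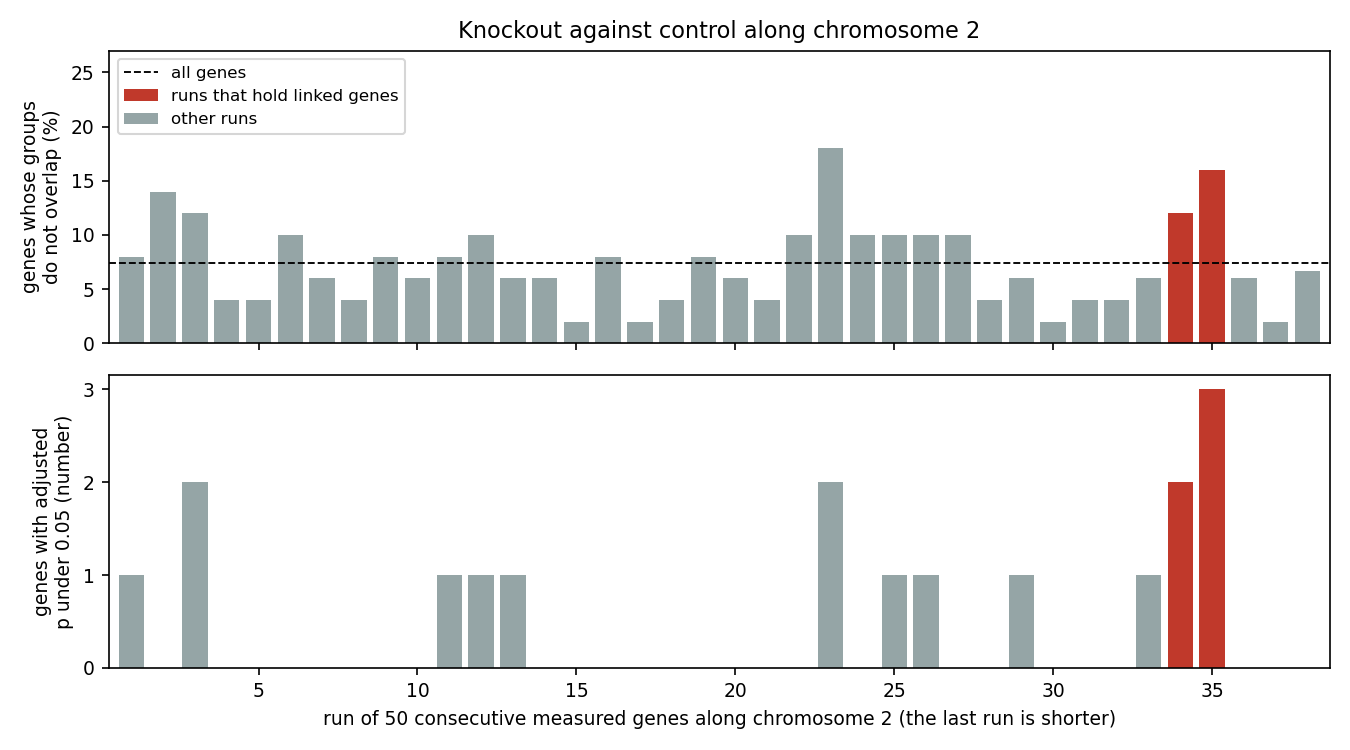
Share of genes with every knockout value above, or every one below, all controls (upper axis, %) and number of genes with an adjusted p under 0.05 (lower axis) in 38 runs of consecutive measured genes along chromosome 2. Red bars mark the 2 runs that hold the linked genes (12%, with 0 linked genes among those that separate, and 16%, with 7 linked genes and Cebpb), grey bars the other runs (2% to 18%), and the dashed line the share over all genes (7.39%). The lower red bars also count Ube2c, Mmp9 and Cebpb, which are left out of the linked set.

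Beside these values stand the measures of the samples themselves. The array medians lay between 5.49 and 5.56 on the log2 scale. Of 12 DC markers, 10 were measured and 0 passed, and their mean deviation from the controls was -0.11, 0.01 and -0.09 in the knockouts, against -0.08 to 0.09 in the controls. Plasma cell markers stood at 0.36, 0.40 and 0.49 in the knockouts, against -0.08 to 0.12 in the controls, with 2 of 9 higher, and monocyte markers at 0.18, 0.21 and 0.46, against -0.17 to 0.21, with 1 of 11 higher. Every knockout lay above every control for the plasma cell list, where single genes differed by 0.04 (Xbp1) to 1.89 (Jchain). The same held for the mean of the 2 erythroid markers measured, at 0.15, 0.15 and 0.43, against -0.09 to 0.12 in the controls. That mean rested on Slc4a1, which differed by 0.50, while Klf1 differed by -0.01. For the monocyte list knockout replicates 1 and 2 lay within the control range. The part of these cells in the values of Sulf2 and 5031425F14Rik was not tested. Neutrophil, T and NK cell and erythroid markers had 0 genes past the threshold, of 8, 7 and 2 measured. The neighbourhood of Itgax, the source of the Cre promoter, had 0 of 9 measured genes past the threshold and a median difference of -0.02.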

How the data were processed

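Spleen DCs were measured on 9 single-channel arrays, 3 knockout and 6 control by the genotype in the labels. The authors deposited 1 log2 intensity for each probe and array. RMA, a method that corrects background, normalizes by quantiles and summarises probe sets, is named in the submitters' processing notes, while its version, settings and genome build were not given in the sources used here. Quantile normalization removes a shift of most genes in 1 direction, and RMA compresses changes of dim probes. Base 2 was inferred from the range of values.

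Of 41801 rows, 34468 had values in all samples. The platform annotation gave 1 gene symbol for 23521 of them, several for 1814 and none for 9133. Where a gene had several probes, the one with the highest mean signal stood for it, and 22180 genes resulted. The difference between the genotypes was fitted in R 4.3.3 with limma 3.58.1 (two-sided, no covariates), with Benjamini-Hochberg adjustment across all genes. Gene order came from the RefSeq table (GRCm38.p6). Motifs and alignments were computed in Python 3.11.15 with Biopython 1.88. The linked genes, marker lists and tests were chosen with earlier results of these data known. Knockout values per sample, with the lowest, median and highest control, are given by a rule. It takes genes past 0.05, the nearest 3 on each side of Cebpb and 2 on each side of Mmp9. It also takes the 3 largest differences in each direction, the 3 with the highest signal, and Trp53rka and Trp53rkb. Such values for Slc9a8 and Mocs3 were chosen after they were seen. On simulated data with 22180 genes, a log2 change of 0.5 was recovered in 50 of 67 genes and a log2 change of 1 in 66 of 67, with 5 false calls. The simulated noise was drawn independently for each gene and array, without variation shared by the genes of a sample. These rates therefore need not hold for the real arrays. The number of arrays limits the precision. Replicate numbers are shared by the groups without a stated pairing, and the deviations of same-numbered samples correlated at -0.14, -0.10 and 0.05, so no block was used. Over all pairs these correlations ran from -0.23 to 0.20. Knockout replicate 3 was positive with control replicates 1 to 3 and negative with 4 to 6, and knockout replicates 1 and 2 the reverse. The deviations were taken from each group's own mean for each gene, so they cancel within a group. Opposite signs among the knockouts and among the controls are therefore partly forced. The labels name no batch, and whether the controls form 2 sets was not tested.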

Additional observations from a re-analysis of the deposited data

Results flagged for a closer look

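In 4 of the 46 linked genes 1 control sample stood apart from the other 5 by Dixon's ratio. Chance flags about 1 in 20 groups of values without ties. Zmynd8, Eya2 and Atp9a have identical values among the other controls, so that rate need not hold here. Zmynd8 had 8.74 in control replicate 6, against 8.91 to 8.99 in the other controls. Slc13a3 had 6.07 in control replicate 5, against 6.17 to 6.23 in the others. Eya2 had 4.98 in control replicate 2, against 4.81 to 4.86 in the others. Atp9a had 5.57 in control replicate 5, against 5.63 to 5.65 in the others.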

How the results depend on the processing

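Of all genes, 201 passed the test, and this count became 125 with arrays centred on their medians, 652 with array weights, 537 at or above the median signal and 33 to 333 with 1 sample left out. The linked genes that passed (2) became 3 with a second quantile normalization, with trend and robust fitting and with array weights. They became 4 at or above the median signal, which tests fewer genes, and 0 to 2 with 1 sample left out. The flanking genes (1) became 0 with centred arrays, 2 with a second quantile normalization, 3 with array weights, 2 at or above the median signal, 0 with all probes and 0 to 1 with 1 sample left out. The 7 linked genes whose groups separate became 5 with a second quantile normalization, 6 with centred arrays and 7 to 12 with 1 sample left out (12 without knockout replicate 3). Fewer samples make separation easier, and the matching shares of all genes were not computed. With the replicate number as a block, 2 genes, 0 linked genes and 0 flanking genes passed, and Pcif1 turned to 0.045 and Trp53rkb to -0.0060. Sulf2 then differed by 0.47 (adjusted p = 0.37) and 5031425F14Rik by -0.60 (adjusted p = 0.29), and the numbers are not shown to pair the samples. Slc12a5 turned to 0.023 with array weights and ranged from -0.097 to 0.0034 with 1 sample left out, and Ncoa5 ranged from -0.19 to 0.035. Sulf2 kept its direction in 16 of 16 alternatives and passed in 14, and 5031425F14Rik kept it in 16 and passed in 9. Of the 28 linked genes whose knockout values are not given by sample under the rule, 13 changed sign in at least 1 alternative. The largest of these had a difference of 0.10 in size, and 0 of the 28 passed in any. The cause of these changes was not tested. Absolute transcript levels and DNA sequence are not measured by these arrays.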
